A study of Mus musculus with 19 samples.

Results

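The cell adhesion molecules described here are 10 genes of the immunoglobulin superfamily, namely Alcam, Ncam1, Ncam2, Sdk1, Sdk2, Dscaml1, Kirrel3, Cadm1, Cadm2 and Cadm3. They were chosen by symbol from the 47069 genes that each count table lists, and each symbol matched 1 Ensembl identifier of the GRCm38 annotation. The rule names symbols and uses no measured value. All 10 had enough counts to be tested, among 15941 tested genes.

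Molecules of this kind carry immunoglobulin domains outside the cell and hold membranes together by binding a copy of themselves, or a relative, on a neighbouring cell. On growing axons they act in fasciculation and pathfinding, and later in the choice of synaptic partners. In the retina, sidekick and Dscam family proteins are known for roles in the layering and spacing of neurons and their arbors.

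Retinal ganglion cells (RGCs) send axons either to the same side of the brain (iRGCs) or across the midline at the optic chiasm (cRGCs), and the study compared the transcriptomes of both populations at E16.5. Both are described as coming from C57/DBA F1 embryos of pooled sex whose genotype is labelled WT. The paper names this strain for its electroporation experiments only, and the sequenced embryos came from Cre lines crossed to a reporter line. Both carried a reporter in the Rosa26 locus that makes GFP-tagged Sun1, a nuclear envelope protein, once Cre has removed a stop cassette. GFP-positive cells of Slc6a4-Cre retinas (the ET33 Sert-Cre line) are the iRGCs. GFP-positive cells of Pou4f2-Cre retinas, with the ventrotemporal region cut away, are the cRGCs. Slc6a4 encodes the serotonin transporter, and Pou4f2-Cre was targeted into the locus of Pou4f2 (Brn3b), a factor of most RGCs. GFP marks the history of Cre activity, so descendants of labelled cells are included. Retinas were digested with collagenase and trypsin before sorting. There were 3 RNA-seq libraries per population, with 28193178 to 33638083 reads counted on genes. The sources used here do not say whether replicates came from separate litters, so p-values measure the spread between these libraries. The sample codes in the labels start differently for both populations, so a batch that these codes may mark and the population cannot be told apart.

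Of 5 genes checked against the labels, Slc6a4 alone did not go with them. Lists of retinal progenitor markers, higher in iRGCs, and of RGC markers, mostly lower in iRGCs, are given further below. Zic2, a factor of iRGCs, was higher in all iRGC libraries (133, 173 and 157 CPM in replicates 1, 2 and 3) than in cRGC libraries (57.0, 60.2 and 65.7 CPM). CPM is the count scaled by library size with TMM factors. Pou4f1, Pou4f2 and Isl2, which mark cRGCs or RGCs in general, were lower in iRGCs, with log2 fold changes of iRGCs over cRGCs of -2.28, -1.15 and -2.15. Slc6a4 itself did not separate the populations. Its level was 2.06, 33.4 and 116 CPM in iRGC replicates 1, 2 and 3 and 48.1, 35.4 and 30.5 CPM in the cRGC replicates, so iRGC replicate 1 was the lowest of all 6 libraries. The log2 fold change of Slc6a4 was 0.41 (edgeR quasi-likelihood test, Benjamini-Hochberg adjusted p = 0.768) and 0.98 without that library (adjusted p = 0.132, edgeR). Without iRGC replicate 3 it turned to -1.11 (adjusted p = 0.345, edgeR), so the direction of Slc6a4 rested on iRGC replicate 3. Results are also given with each of these libraries left out.

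Most of the 10 adhesion genes had lower transcript levels in iRGCs. Of these, 8 fell in iRGCs, Sdk2 rose and Alcam did not pass the threshold, an adjusted p-value under 0.1 (edgeR quasi-likelihood test, two-sided, Benjamini-Hochberg over all tested genes). Among all tested genes, 23.1% were lower and 23.3% higher in iRGCs at this threshold. The median log2 fold change was -1.17 over the 10 genes and -0.0031 over all tested genes. iRGC and cRGC libraries stood apart without overlap for 9 of the 10 genes, which was so for 55.3% of tested genes. The change also exceeded 1 on the log2 scale, in either direction, for 6 of the 10 genes and for 23.1% of tested genes. These 6 genes, all lower in iRGCs, were Kirrel3, Ncam2, Dscaml1, Sdk1, Cadm2 and Cadm3. The 10 genes together took 0.170%, 0.156% and 0.170% of the counts in iRGC replicates 1, 2 and 3 and 0.252%, 0.243% and 0.222% in cRGC replicates 1, 2 and 3. On leaving out any single library, iRGC replicate 1 included, the count of genes that fell was 8 each time. Without iRGC replicate 1, the log2 fold changes of these 8 genes ran from -2.43 for Kirrel3 to -0.37 for Cadm1. Without iRGC replicate 3 they ran from -3.39 for Ncam2 to -0.40 for Cadm1.

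**Figure D1:**
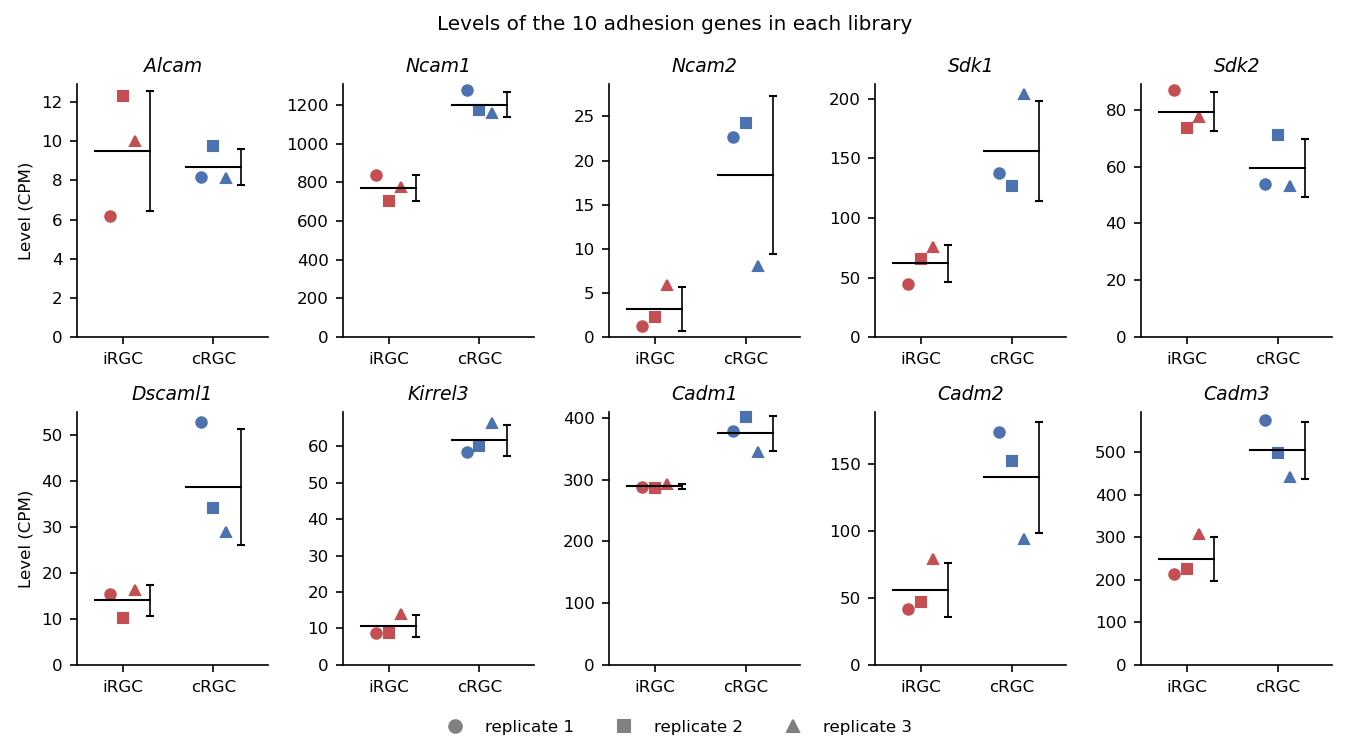
Level of each adhesion gene in each library, in CPM on linear axes from 0, with 1 panel per gene. Symbols mark the replicates, horizontal lines the mean and bars the SD (n = 3); iRGC and cRGC libraries overlap for Alcam and for no other of the 10 genes.

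Ncam1 was the most abundant of the 10 genes and encodes the neural cell adhesion molecule, which binds itself between cells and signals through FGF receptors and the kinase Fyn. The gene occupies 49502136 to 49798925 on the minus strand of chromosome 9 (GRCm38, as for all positions given here). Its level was 838, 704 and 778 CPM in iRGC replicates 1, 2 and 3 and 1278, 1174 and 1157 CPM in cRGC replicates 1, 2 and 3. Every iRGC library lay below every cRGC library, and the replicates of each population stayed close to each other. The means were 773 ± 67.4 CPM and 1203 ± 65.6 CPM (SD, n = 3), which placed iRGCs at a log2 difference of -0.64 from cRGCs (SE 0.106, edgeR adjusted p = 0.00156).

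Ncam2, also called OCAM, is the closest relative of Ncam1 and is known from olfactory axons. It lies on the plus strand of chromosome 16 from 81200697 to 81626828. Its level was 1.25, 2.26 and 5.96 CPM in iRGC replicates 1, 2 and 3 and 22.7, 24.3 and 8.10 CPM in the cRGC replicates. The populations did not overlap, but cRGC replicate 3 lay much nearer to iRGC replicate 3 than to the other cRGC libraries. iRGCs were lower by a log2 difference of -2.54 (SE 0.609, 95% confidence interval -3.92 to -1.15, edgeR adjusted p = 0.00977), which became -3.39 without iRGC replicate 3 and was at most -2.16 with any other single library left out. Ncam2 thus had the widest relative spread of the 10 genes, with an SD of 78.5% of the mean in iRGCs and 48.6% in cRGCs.

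Alcam, a self-binding molecule found on retinal axons, lies on the minus strand of chromosome 16 from 52248996 to 52454074. It had 6.21, 12.3 and 10.0 CPM in iRGC replicates 1, 2 and 3 and 8.15, 9.77 and 8.13 CPM in the cRGC replicates. The cRGC libraries fell within the range of the iRGC libraries. On the log2 scale iRGCs differed by 0.13 (SE 0.301, edgeR adjusted p = 0.775), with a 95% confidence interval from -0.55 to 0.81. Without iRGC replicate 2, which had the highest level, the log2 fold change was -0.10. The lowest and highest counts behind these levels were 193 and 398, both in iRGCs.

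The sidekick genes moved in opposite directions in the main fit, although the rise of Sdk2 was small and was lost without some single libraries, as given below. Sdk1 and Sdk2 encode large proteins that bind copies of themselves and are known for joining retinal neurons to partners in particular layers of synapses. Their upstream sequences are shown because these paralogues differed in direction in the main fit. They are the 250 bases before each RefSeq start in GRCm38.p6, given 5′ to 3′ on the strand of the gene, at chr5:141241284-141241533 on the plus strand for Sdk1 and chr11:114067030-114067279 on the minus strand for Sdk2. Capitals mark matches to an E-box, CANNTG, and to the core of the Ebf palindrome, CCCNNGGG.
Sdk1: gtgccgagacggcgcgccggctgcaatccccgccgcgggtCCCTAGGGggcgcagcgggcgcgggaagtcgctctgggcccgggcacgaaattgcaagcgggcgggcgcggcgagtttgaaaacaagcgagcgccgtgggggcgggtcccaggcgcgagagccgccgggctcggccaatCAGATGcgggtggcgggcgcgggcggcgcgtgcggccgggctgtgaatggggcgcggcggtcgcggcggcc
Sdk2: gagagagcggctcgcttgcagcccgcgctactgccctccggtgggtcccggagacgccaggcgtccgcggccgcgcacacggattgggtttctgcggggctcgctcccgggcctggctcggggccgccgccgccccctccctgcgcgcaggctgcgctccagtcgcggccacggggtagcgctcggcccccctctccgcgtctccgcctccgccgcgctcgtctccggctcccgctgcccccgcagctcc
Both stretches were rich in G and C, at 78.0% for Sdk1 and 78.8% for Sdk2, with 44 and 38 CpG dinucleotides. Sdk1 held 1 match to each motif and Sdk2 held 0. The E-box was in 66.2% and the Ebf core in 11.8% of all 32851 upstream stretches of the same length, both motifs reading alike on either strand, so these matches describe the sequences only.

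Sdk1, on the plus strand of chromosome 5 from 141241490 to 142215586, had 44.8, 65.2 and 75.6 CPM in iRGC replicates 1, 2 and 3. The cRGC replicates had 138, 127 and 204 CPM. Every cRGC library lay above every iRGC library, and cRGC replicate 3 was the highest. The means were 61.9 ± 15.7 CPM and 156 ± 41.8 CPM (SD, n = 3), with iRGCs at -1.34 on the log2 scale against cRGCs (SE 0.231, edgeR adjusted p = 0.00190).

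Sdk2, on the minus strand of chromosome 11 from 113776374 to 114067046, had 87.0, 73.7 and 77.3 CPM in iRGC replicates 1, 2 and 3. The cRGC replicates had 53.9, 71.2 and 53.1 CPM. The populations did not overlap, although cRGC replicate 2 lay just below iRGC replicate 2. iRGCs exceeded cRGCs by 0.42 on the log2 scale (SE 0.147, edgeR adjusted p = 0.0496). Sdk2 no longer passed without iRGC replicate 1 (log2 fold change 0.34, adjusted p = 0.130), without cRGC replicate 1 (0.34, adjusted p = 0.178) or without cRGC replicate 3 (0.35, adjusted p = 0.186, edgeR), and over all alternatives the adjusted p-value ranged from 0.0115 to 0.186.

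Dscaml1, a relative of the Down syndrome cell adhesion molecule Dscam that acts in self-avoidance of retinal neurons, fell in iRGCs. It lies on the plus strand of chromosome 9 from 45426628 to 45753712. Its level was 15.5, 10.1 and 16.3 CPM in iRGC replicates 1, 2 and 3 and 52.7, 34.1 and 28.8 CPM in the cRGC replicates. The populations did not overlap, and cRGC replicate 1 was the highest library. This was a log2 difference of -1.46 (SE 0.273, edgeR adjusted p = 0.00276).

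Kirrel3, a self-binding protein of the nephrin family that sorts axons and joins synaptic partners, had the smallest SE relative to its change among the 10 genes. It lies on the plus strand of chromosome 9 from 34485894 to 35036716. Its level was 8.84, 8.78 and 14.1 CPM in iRGC replicates 1, 2 and 3 and 58.5, 60.1 and 66.4 CPM in the cRGC replicates. The gap between the populations was several times the spread within either. The means were 10.6 ± 3.03 CPM and 61.6 ± 4.21 CPM (SD, n = 3), so iRGCs had 17.1% of the cRGC level in the fit. The log2 difference was -2.54 (SE 0.210, edgeR adjusted p = 2.05e-04) and stayed within -2.82 and -2.43 with any single library removed.

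All 3 Cadm genes fell in iRGCs. They encode synaptic cell adhesion molecules (SynCAMs), which bind one another across the cleft and along axons. Cadm1, on the plus strand of chromosome 9 from 47530173 to 47857637, had 288, 286 and 294 CPM in iRGC replicates 1, 2 and 3. The cRGC replicates had 380, 401 and 345 CPM. The populations did not overlap, and the iRGC libraries differed by an SD of 1.31% of their mean. In the fit, iRGCs were at -0.38 on the log2 scale (SE 0.0983, edgeR adjusted p = 0.0146). With library totals in place of TMM factors, which moved the median log2 fold change of all tested genes to 0.20, that of Cadm1 was -0.17 (adjusted p = 0.195, edgeR).

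Cadm2, on the minus strand of chromosome 16 from 66655421 to 67620908, had 41.9, 47.2 and 78.7 CPM in iRGC replicates 1, 2 and 3. The cRGC replicates had 174, 153 and 93.8 CPM. The populations did not overlap, and replicate 3 of each population lay nearest to the other population, as for Ncam2. The fitted log2 difference was -1.32 (SE 0.282, edgeR adjusted p = 0.00545).

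Cadm3, which binds itself and Cadm1, lies on the minus strand of chromosome 1 from 173333258 to 173367695. It had 214, 226 and 308 CPM in iRGC replicates 1, 2 and 3 and 576, 498 and 442 CPM in the cRGC replicates. Every iRGC library lay below every cRGC library. The means were 249 ± 51.5 CPM and 505 ± 66.9 CPM (SD, n = 3), or -1.02 on the log2 scale (SE 0.163, edgeR adjusted p = 0.00126). The upstream sequence of Cadm3 is shown because, with Sdk1, it was the other of the 6 sequences read here that held the Ebf core CCCNNGGG, marked in capitals. It covers the 250 bases before the RefSeq start at chr1:173367696-173367945 on the minus strand of GRCm38.p6, 5′ to 3′.
Cadm3: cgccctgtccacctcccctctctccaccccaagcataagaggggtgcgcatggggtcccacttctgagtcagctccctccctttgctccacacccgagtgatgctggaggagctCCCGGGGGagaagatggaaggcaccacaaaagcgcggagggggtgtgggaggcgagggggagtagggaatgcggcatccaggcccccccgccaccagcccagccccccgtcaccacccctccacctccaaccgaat
Upstream sequence from RefSeq was found for 6 of the 10 genes, namely Alcam, Ncam2, Sdk1, Sdk2, Cadm2 and Cadm3. The homeodomain core TAATTA, which can lie within sites of POU4F factors, and the Zic core CAGCAGG were in none of the 6 stretches on either strand. These letters were in 4.84% and 8.44% of all upstream stretches.

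Levels of the 10 genes were compared with one another per length, as CPM per kilobase of exon. In the marker lists, the most abundant gene is that with the highest mean CPM, without regard to length. In cRGCs the order was Ncam1 (139 ± 7.57, SD, n = 3), Cadm3 (69.7 ± 9.23), Cadm1 (35.9 ± 2.70), Cadm2 (14.3 ± 4.22), Sdk1 (14.1 ± 3.77), Kirrel3 (9.55 ± 0.652), Dscaml1 (4.33 ± 1.41), Sdk2 (3.84 ± 0.661), Ncam2 (1.62 ± 0.787) and Alcam (1.22 ± 0.132). The libraries of neighbours in this order overlapped for Cadm2 and Sdk1, for Dscaml1 and Sdk2, and for Ncam2 and Alcam. In iRGCs the first 5 genes stood in the same order, from Ncam1 (89.3 ± 7.78) to Sdk1 (5.58 ± 1.41). Below them, Sdk2 (5.13 ± 0.446) ranked above Kirrel3 (1.64 ± 0.470), Dscaml1 (1.57 ± 0.377) and Alcam (1.33 ± 0.432), and Ncam2 was last (0.279 ± 0.219). In iRGCs, the libraries overlapped for neighbours from Cadm2 to Sdk2 and from Kirrel3 to Alcam. Ncam1 alone gave 46.0% to 54.2% of the reads counted on the 10 genes.

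**Figure D2:**
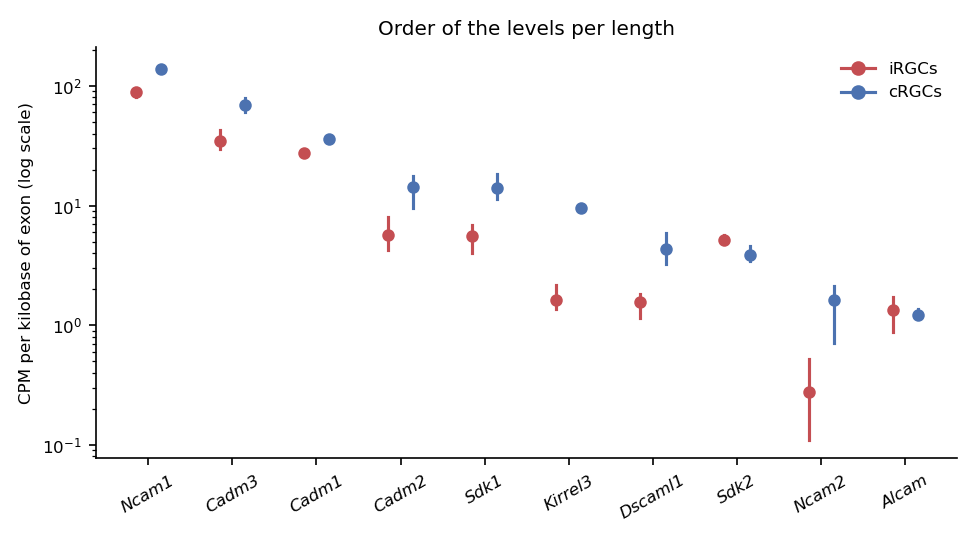
Level of each adhesion gene in CPM per kilobase of exon on a log axis, with genes in the order of their cRGC means. Points are means and lines run from the lowest to the highest of 3 libraries; the iRGC point lies above the cRGC point for Sdk2 and Alcam.

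Ratios within a library do not depend on how libraries are scaled. Per kilobase of exon, Sdk2 was at 139%, 81.0% and 73.3% of Sdk1 in iRGC replicates 1, 2 and 3. In cRGC replicates 1, 2 and 3 it was at 28.0%, 40.3% and 18.7%. Sdk1 exceeded Sdk2 in every cRGC library, whereas Sdk2 exceeded Sdk1 in iRGC replicate 1 alone. The mean log2 ratio was higher in iRGCs by 1.76 (exact permutation test, two-sided, p = 0.1, and 0.167 after Benjamini-Hochberg adjustment over 5 ratios). The smallest p-value that 3 libraries against 3 allow is 0.1. No ratio could therefore fall under the threshold of 0.1 used for genes, whatever its values.

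Among the Cadm genes, Cadm3 was at 107%, 113% and 151% of Cadm1 in iRGC replicates 1, 2 and 3 and at 218%, 179% and 185% in the cRGC replicates. The Cadm2 level was 15.5%, 17.6% and 28.5% of Cadm1 in the iRGC replicates and 48.7%, 40.5% and 28.9% in the cRGC replicates. Neither ratio overlapped between populations, though for Cadm2 replicate 3 of each population nearly met. The log2 ratio differed by -0.66 for Cadm3 and by -0.96 for Cadm2 (each exact permutation p = 0.1, adjusted p = 0.167).

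The ratio of Ncam2 to Ncam1 was 0.114%, 0.245% and 0.586% in iRGC replicates 1, 2 and 3 and 1.36%, 1.58% and 0.535% in the cRGC replicates. Here cRGC replicate 3 fell below iRGC replicate 3. The log2 ratio differed by -2.04 (exact permutation p = 0.2, adjusted p = 0.2). Alcam was at 0.901%, 2.13% and 1.56% of Ncam1 in iRGCs and at 0.776%, 1.01% and 0.855% in cRGCs, with overlap between iRGC replicate 1 and cRGC replicate 2, and a log2 difference of 0.72 (exact permutation p = 0.2, adjusted p = 0.2).

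**Figure D3:**
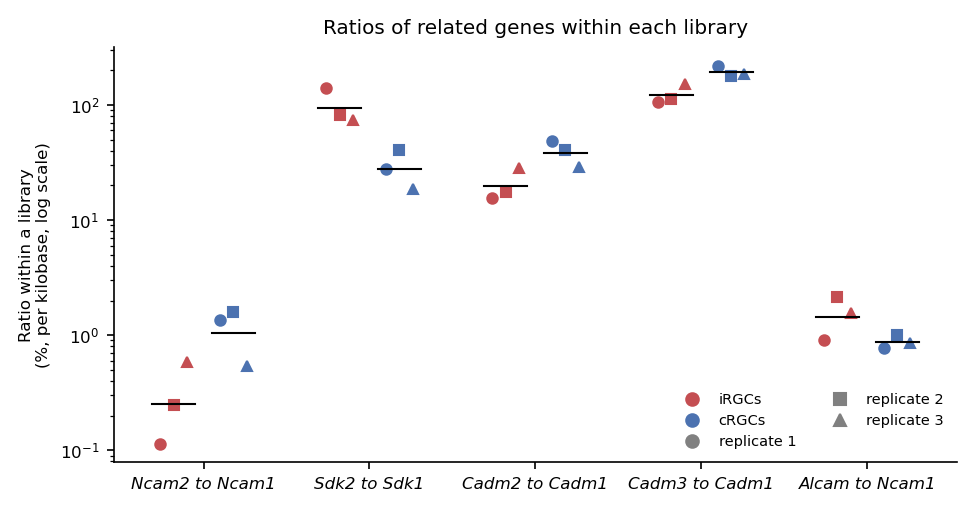
Ratio of related genes within each library, in percent per kilobase of exon on a log axis, with symbols for the replicates and lines at the geometric means. The Sdk2 to Sdk1 ratio lies at 73.3% or more in iRGCs and at 40.3% or less in cRGCs.

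The replicates of a population differed in a way that many of the 10 genes shared. In iRGCs, replicate 3 was the highest library for 7 genes (Ncam2, Sdk1, Dscaml1, Kirrel3, Cadm1, Cadm2 and Cadm3) and the lowest for 0. In cRGCs, replicate 3 was the lowest library for 8 genes and the highest for Sdk1 and Kirrel3. The summed level of 16 RGC markers was also highest in replicate 3 among the iRGC libraries, at 5572 CPM against 2629 and 3665 CPM in replicates 1 and 2. In cRGC replicates 1, 2 and 3 this sum was 14593, 13158 and 16086 CPM. There replicate 3 had the highest marker sum although it was the lowest library for 8 of the adhesion genes. Reads on no gene were 12.3% of uniquely aligned reads in iRGC replicate 3 and 18.4% to 23.2% in the other 5 libraries. The part of this marker level and of these reads in the levels of the adhesion genes was not tested.

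Several marker lists moved with the populations, whereas the sums of horizontal cell and of fibroblast markers overlapped between them. Of the 16 RGC markers, 15 fell in iRGCs and Thy1 did not pass, with a median log2 fold change of -1.95. Nefm had the highest mean CPM of this list, not corrected for length. Of the 10 adhesion genes, only Kirrel3 and Ncam2 fell by more than this median. All 16 retinal progenitor markers rose, with a median of 2.43, led in abundance by Ccnd1, a cyclin. Their summed level was 10174, 8803 and 7752 CPM in iRGC replicates 1, 2 and 3 and 981, 2367 and 1552 CPM in the cRGC replicates. Of 10 amacrine markers 9 rose (most abundant Tfap2b), as did 6 of the 7 tested photoreceptor precursor markers (most abundant Otx2), while Rxrg fell. The summed levels of endothelial and of mural markers peaked in iRGC replicate 2, where Cdh5, a junction protein of vessels, had 81.3 CPM against 15.2 and 0.158 CPM in replicates 1 and 3 and 0 counts in all cRGC libraries. All 7 tested endothelial markers rose, and so did 3 of 4 tested mural markers. The 12 listed endothelial markers summed to 471, 731 and 437 CPM in iRGC replicates 1, 2 and 3 and to 89.2, 109 and 72.03 CPM in the cRGC replicates. Kdr, which retinal progenitors also express, was the most abundant of them and did not follow the sum, with 366, 320 and 418 CPM in iRGC replicates 1, 2 and 3. Cdh5, Tie1 and Erg had 0 counts in all cRGC libraries. The 8 listed mural markers summed to 132, 275 and 108 CPM in iRGCs and to 20.8, 31.2 and 22.5 CPM in cRGCs, with Notch3 the most abundant. Notch3 alone had 113, 117 and 83.5 CPM in iRGC replicates 1, 2 and 3 and 17.1, 26.7 and 18.6 CPM in the cRGC replicates. It thus made up most of the mural sum in every library except iRGC replicate 2. In bulk libraries such as these, fewer cells of a type and less RNA per cell cannot be told apart, and the part of these other cells in the changes of the adhesion genes was not tested. Without iRGC replicate 2, the 8 falls and the rise of Sdk2 still passed the threshold (Sdk2 log2 fold change 0.47, adjusted p = 0.0721, edgeR).

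**Figure D4:**
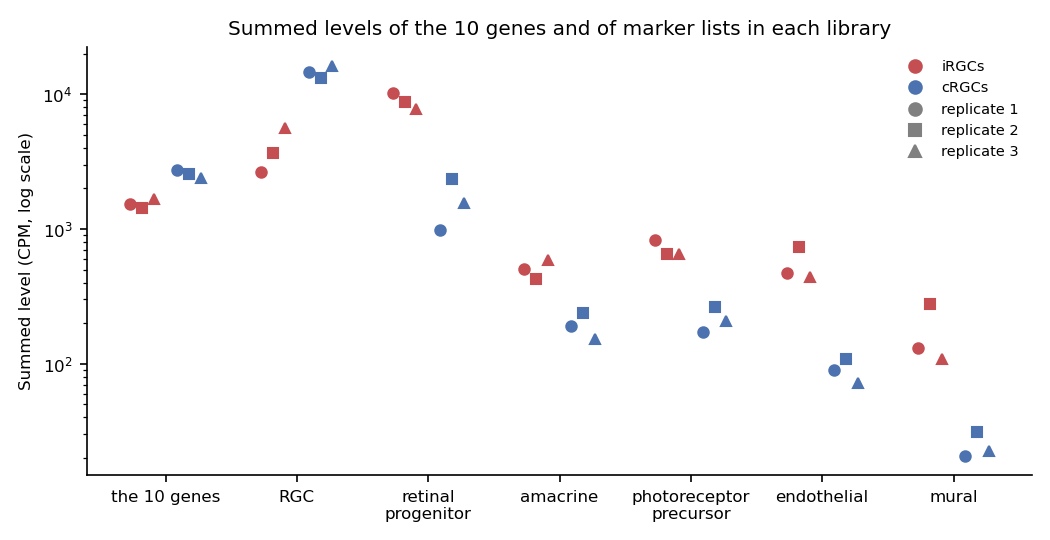
Summed CPM in each library of the 10 adhesion genes and of RGC, retinal progenitor, amacrine, photoreceptor precursor, endothelial and mural markers, on a log axis, with symbols for the replicates. The sums of RGC markers and the 10 genes are higher in all cRGC libraries, those of the other 5 lists drawn are higher in all iRGC libraries, and the endothelial and mural sums peak in iRGC replicate 2.

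Close relatives of the 10 genes did not share a direction. Of 7 tested relatives, 4 rose in iRGCs and 2 fell. Dscam, the paralogue of Dscaml1, had 31.4, 47.7 and 82.1 CPM in iRGC replicates 1, 2 and 3 and 197, 186 and 235 CPM in the cRGC replicates, a log2 fold change of -1.94 (SE 0.303). Cadm4 fell as the other Cadm genes did, from 223 ± 12.1 CPM in cRGCs to 105 ± 26.0 CPM in iRGCs (SD, n = 3), a log2 fold change of -1.08 (SE 0.168).

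The relatives of Kirrel3 went the other way. Kirrel2 had 12.7, 12.7 and 14.9 CPM in iRGC replicates 1, 2 and 3 and 1.00, 3.66 and 1.49 CPM in the cRGC replicates, a log2 fold change of 2.71 (SE 0.474). With single libraries left out, that of Kirrel2 ran from 2.37 (without cRGC replicate 1) to 3.44 (without cRGC replicate 2). Nphs1, which encodes nephrin, a binding partner of Kirrel proteins in the kidney filter, had 9.23, 6.61 and 4.00 CPM in iRGCs and 0, 0.518 and 0.710 CPM in cRGCs (log2 fold change 3.99, SE 0.986). Its log2 fold change ran from 3.42 without cRGC replicate 1 to 4.63 without cRGC replicate 3. Kirrel rose by 0.41 on the log2 scale (SE 0.136, edgeR adjusted p = 0.0403), and did not pass without iRGC replicate 2, cRGC replicate 2 or cRGC replicate 3 (adjusted p = 0.120, 0.116 and 0.133, edgeR). Per kilobase of exon, Kirrel3 and Kirrel were at 9.55 and 9.49 CPM in cRGCs and at 1.64 and 12.6 CPM in iRGCs.

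The relatives of Alcam were Mcam and Bcam. Mcam, which vessels also express, had 25.4, 57.9 and 27.8 CPM in iRGC replicates 1, 2 and 3 and 5.23, 4.52 and 1.45 CPM in cRGCs, and so was highest in the library with the highest endothelial sum. Its log2 fold change was 3.32 (SE 0.501), and 2.84 without iRGC replicate 2, and the part of endothelial cells in it was not tested. For Bcam the log2 difference was -0.34 (SE 0.178, edgeR adjusted p = 0.166), with an interval of -0.75 to 0.06.

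The enzymes that add polysialic acid to Ncam1, a sugar chain that weakens its binding, fell in iRGCs. St8sia2 had 155, 151 and 196 CPM in iRGC replicates 1, 2 and 3 and 492, 458 and 436 CPM in the cRGC replicates. The populations stood far apart, with iRGCs at -1.46 on the log2 scale (SE 0.127, edgeR adjusted p = 2.05e-04). St8sia4 had 30.3, 42.8 and 42.1 CPM and 57.7, 49.0 and 49.8 CPM, that is -0.44 on the log2 scale (SE 0.163, edgeR adjusted p = 0.0597). Its call was lost without iRGC replicate 1 (adjusted p = 0.123, edgeR), cRGC replicate 1 (0.159) or cRGC replicate 3 (0.1004), with library totals alone (0.249) and with a replicate block (0.111).

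**Figure D5:**
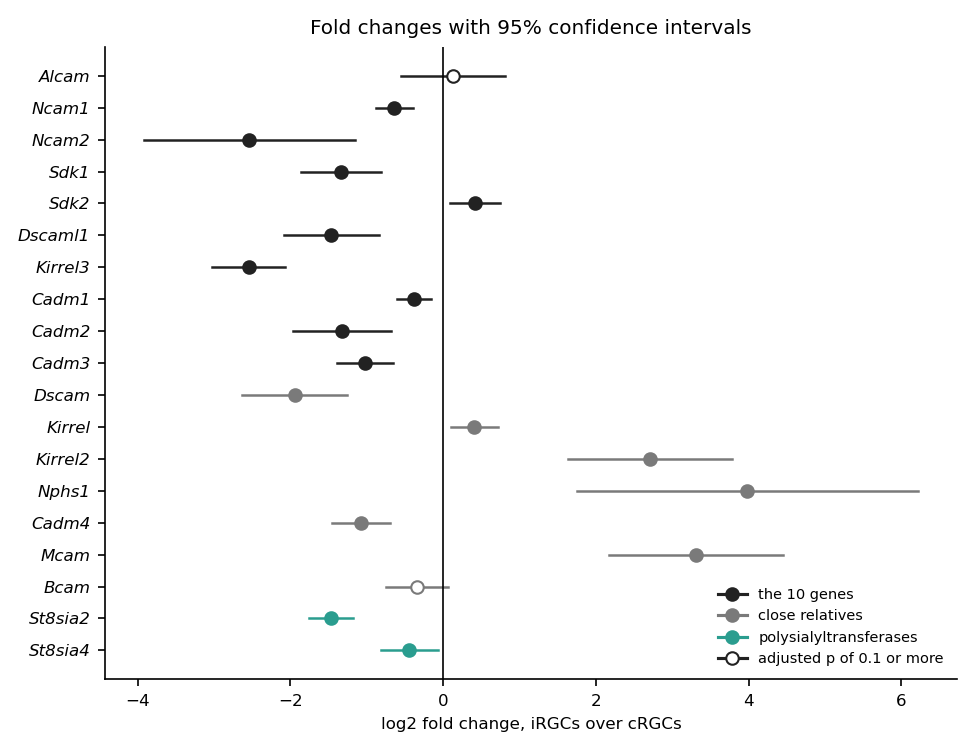
Log2 fold change of iRGCs over cRGCs with its 95% confidence interval for the 10 adhesion genes, 7 close relatives and both polysialyltransferases. Open circles had an adjusted p-value of 0.1 or more (edgeR), and these are Alcam and Bcam.

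Other immunoglobulin adhesion genes were mixed. Of 25 tested, 11 fell, 8 rose and 6 did not pass, with a median log2 fold change of -0.41. The IgLON genes, which encode lipid-anchored adhesion molecules of axons, fell in 4 of 5 cases, and the largest fall among them was that of Ntm (neurotrimin), at -1.64. Of the 6 JAM and CTX genes, whose products sit at cell junctions, 4 rose and 2 fell. The largest falls in the whole list were those of Clmp (-2.00), Ntm and Igdcc3 (-1.48). The largest rises were those of F11r (3.83), a junctional molecule, Esam (3.71), an endothelial molecule, and Igsf11 (2.46). With single libraries left out, F11r ran from 3.36 (without cRGC replicate 2) to 4.53 (without cRGC replicate 3). Esam ran from 2.03 (without iRGC replicate 2) to 4.93 (without cRGC replicate 1). Igsf11 ran from 2.18 (without cRGC replicate 1) to 3.14 (without cRGC replicate 2). Esam lost its call without iRGC replicate 2 (log2 fold change 2.03, adjusted p = 0.363, edgeR), cRGC replicate 2 (adjusted p = 0.171) or cRGC replicate 3 (0.188), with limma voom (0.537) and with the replicate block (0.373), and it is also in the endothelial list.

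The list of partners held 28 genes of signalling, cytoskeletal linkage, scaffolding and shedding, and 15 of them fell, 9 rose and 4 did not pass (median log2 fold change -0.43). The largest falls were those of Gap43 (-1.92), a growth cone protein that is also in the RGC marker list, Epb41l1 (-1.92), which links Cadm proteins to the membrane skeleton, and St8sia2. The largest rises were those of Fgfr2 (2.49), Ezr (2.40), which encodes ezrin, and Epb41l2 (1.47). Fyn, the kinase that acts below Ncam1, fell by 0.81, whereas Fgfr1 rose by 1.01. Members of the same kind thus moved apart among the linkers, with 5 of 9 lower and 4 of 9 higher. Relatives and partners together had 28 of 60 genes lower and 21 higher, beside 23.1% and 23.3% of all tested genes.

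The 10 genes lie on 5 chromosomes. On chromosome 9 lie 4 of them, beside 5.62% of tested genes, and Dscaml1, Cadm1 and Ncam1 fall within 4.37 Mb. Another 3 lie on chromosome 16, beside 2.90% of tested genes. The gene models of 9 of the 10 span more than 200 kb, which 5.83% of 15883 tested genes with a model do, and the median span was 327 kb against 21.2 kb. Cadm3 is the exception at 34.4 kb. Exons of Ncam1, Cadm2 and Dscaml1 share 4.81%, 2.61% and 0.0224% of their bases with antisense genes, whose levels were at most 0.276 CPM in any library. Cadm3 shares 4.98% of its exonic bases with Ackr1 on the same strand, and Ackr1 was counted at 24.1 to 42.7 CPM. Strand cannot assign reads from the bases that Cadm3 and Ackr1 share. For the antisense pairs it could do so only if strand was used in counting, which the sources used here do not give.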

How the data were processed

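RNA-seq counts of sorted E16.5 iRGCs and cRGCs were analysed, 3 libraries each, and the 13 ATAC-seq samples were not analysed here. The authors aligned reads to mm10 with HISAT2 2.1.0, counted them on Ensembl genes with HTSeq 0.11.1 and deposited raw counts per gene, 1 table per library (versions also from the submitters' processing notes). Whether strand was used is not given in the sources used here. Tallies outside genes were left out, and reads on no gene were 12.3% (iRGC replicate 3) to 23.2% of uniquely aligned reads. Symbols, positions and exon lengths came from GENCODE M21 of GRCm38, for 46574 of 47069 genes, and upstream sequences from RefSeq.

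The test was that of edgeR 4.0.16 under R 4.3.3 (filterByExpr, TMM, quasi-likelihood test, no block). Adjusted p-values are Benjamini-Hochberg values over all tested genes, with a threshold of 0.1. Confidence intervals used the residual and prior degrees of freedom. An SE is the size of the log2 fold change over the root of its F statistic. The biological coefficient of variation was 36.3%. The fits were tested on simulated data. Ratios used exact permutation tests (scipy 1.17.1). Alternatives were other size factors, DESeq2 1.42.0, limma voom 3.58.1, other filters and thresholds, protein-coding genes alone, each library left out and a replicate block. Figures used matplotlib 3.10.9.

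The genes and lists were chosen with earlier results of these data known. Named were the 10 genes, the close relatives, both polysialyltransferases, the 3 largest calls per direction of the other 2 lists among genes of at least 1 CPM, the most abundant gene of each marker list and the label genes. Thy1, Rxrg, Cdh5, Fyn, Fgfr1, Tie1, Erg, Prox1, Aldh1l1, Gfap, Lum, Col3a1, Dcn, Twist1 and the overlapping genes were added after their values were seen.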

Additional observations from a re-analysis of the deposited data

How the results depend on the processing

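Over 17 alternatives for each of the 10 genes, the direction and call were kept in 162 of 170 cases. Alcam, not past the threshold in any, turned to -0.10 without iRGC replicate 2 and ranged up to 0.36 without iRGC replicate 1. Cadm1 lost its call with library totals alone, which shifted the median of all tested genes by 0.20 on the log2 scale. The other 6 losses were those of Sdk2 without iRGC replicate 1, cRGC replicate 1 or cRGC replicate 3, and those of Ncam1, Sdk2 and Cadm1 when an absolute log2 fold change above 1 was also required. With that requirement, 3688 genes passed in place of 7395, and of the 10 genes 6 were lower and 0 higher (edgeR). With each library left out, the number of the 10 genes higher in iRGCs ranged from 0 to 1 and the number of genes past the threshold from 6303 to 7603. DESeq2 called 7790 genes and limma voom 7727. Same-numbered libraries of both populations did not deviate together (r of -0.01, -0.02 and -0.06 for replicates 1, 2 and 3), so the numbers were not taken as pairs. With the replicate block, 6751 genes passed, and 8 of the 10 genes were lower and 1 higher. The within-library ratios kept their direction, with log2 differences from -2.64 to -1.47 for Ncam2 to Ncam1, 1.48 to 2.04 for Sdk2 to Sdk1, and 0.44 to 1.06 for Alcam to Ncam1 when each library was left out. The lowest counts of Ncam2 and Alcam were 39 and 193, both in iRGC replicate 1, and the SD between iRGC libraries was 78.5% and 32.4% of their means.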

Other observations

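Marker lists of further cell types are given here, and which cells their transcripts came from was not tested. Horizontal cell markers (most abundant Onecut2) were not past the threshold for 4 of 5 genes, and Prox1, which other retinal cells also express, rose. Their summed level overlapped between populations, at 265, 284 and 234 CPM in iRGC replicates 1, 2 and 3 and 240.2, 250.4 and 393 CPM in the cRGC replicates. Of 6 tested microglia markers 4 rose in iRGCs, led by Csf1r, and the summed level of the list was 17.8, 26.1 and 17.8 CPM in iRGC replicates 1, 2 and 3 and 1.19, 4.42 and 1.65 CPM in the cRGC replicates. Fibroblast markers (most abundant Col1a2) summed to 17.7, 36.3 and 9.87 CPM in iRGCs and 8.73, 10.1 and 10.2 CPM in cRGCs, and 5 of the 8 were at 0 in all cRGC libraries, of which Lum was at 0 in every library and Col3a1, Dcn and Twist1 were above 0 in 1 iRGC library each. Pigment epithelium markers (most abundant Rlbp1) summed to at most 9.09 CPM, with 1 of 4 tested genes higher. In the list for astrocytes and the optic stalk, Slc1a3, which progenitors also express, rose by 2.64 on the log2 scale and Aldh1l1 fell by 1.09, while Gfap was at or near 0 in all 6 libraries, with at most 0.189 CPM.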
